A study of Homo sapiens with 60 samples.

Results

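The genes of the proteasome were followed in the astrocytoma-derived human cell line 1321N1 over 24 h of exposure to arsenic, cadmium or mercury. The members were taken by name. They are the protein-coding genes called PSMA, PSMB, PSMC, PSMD, PSME, PSMF or PSMG followed by a number, plus POMP, which gave 49 of the 62703 genes in the table. Arsenic was given as sodium metaarsenite at 2.55 µM, cadmium as its chloride at 2.3 µM, and mercury as its chloride at 20 µM, and non-treated cells were collected beside them. Cells were taken after 1.5, after 3, after 6, after 12 or after 24 h. Each of the 20 combinations of treatment and time had 3 libraries, 60 in all, and RNA was sequenced from the 3′ end of transcripts. The cells carried no genetic change in this experiment, and all came from the same line in the same serum-containing medium. The libraries of a group are described as technical triplicates, so the p-values given here measure the spread between these libraries and may not cover the spread between independent cultures.

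The proteasome is the large protease that degrades proteins marked with ubiquitin. Its 20S core is a barrel of outer alpha rings and inner beta rings, and only some of the beta subunits cut peptide bonds. The 19S cap binds ubiquitin chains, removes them, and threads the unfolded substrate into the core with a ring of ATPases. Dedicated chaperones assemble core and cap, other activators can take the place of the cap, and some catalytic subunits have immune-inducible substitutes. Arsenic, cadmium and mercury ions bind thiols and can damage proteins, and cells that lose proteasome capacity are known to raise the transcripts of most subunits together through the transcription factor NFE2L1.

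The libraries held 2215276 to 4404609 counted reads. Levels are given as CPM, the count scaled to a common library size after TMM normalization, and 3 counts in a library corresponded to 0.682 to 1.36 CPM. Of the astrocyte markers, GFAP had 6 counts over all libraries, S100B had 1, and AQP4 and ALDH1L1 had 0, whereas VIM lay between 3014 and 5782 CPM and SOX9 between 29.7 and 124 CPM. SLC1A2 had 23 counts, SLC1A3 had 205 and reached 4.09 CPM, and NES lay between 0.33 and 7.71 CPM. Markers of other cells were low. RBFOX3, MBP, PECAM1 and CDH5 had 5 to 14 counts in total, MOG and AIF1 had 0, and the highest levels of PTPRC, CD68 and SNAP25 were 2.03, 2.68 and 1.79 CPM, with SYT1 reaching 21.8 CPM. GFAP, S100B, AQP4 and ALDH1L1 were thus at or near 0 at this depth, whereas SLC1A3 was counted at a low level in 55 of 60 libraries. Apart from SYT1, the markers of neurons, oligodendrocytes, microglia and endothelium were at or near 0 in every group.

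Of the 49 proteasome genes, 42 had enough counts to be tested, among 12341 genes tested in all. The other 7 were PSMA2 with 2 counts over the 60 libraries, PSMA6 with 143, the testis-specific alpha subunit PSMA8 with 1, PSMB9 with 187, PSMB10 with 35, the thymus-specific PSMB11 with 1, and PSMD5 with 6. For 3 of these, the annotation limits what could be counted. The last 400 exonic bases of PSMA2, where 3′ reads fall, lie fully inside exons of a second annotated gene on the same strand, and 95.2% of those of PSMA6 and 84.2% of those of PSMB10 do. The counting mode leaves out reads that touch more than 1 gene, so the low counts of these 3 genes are no measure of their expression. For PSMA1 the share was 29.8%. PSME2 shares 33.6% of its 50-base stretches with the pseudogene PSME2P2, and its level is uncertain to that extent. Among the tested members, the median level in non-treated cells ran from 6.71 CPM for PSMB8 to 662 CPM for PSMA7, on a scale that is not divided by transcript length because only transcript ends were read. The members were well counted, with a median of 612 reads per gene and library against 72.2 for all genes tested, and smaller changes can be called where counts are higher. The part of this in the counts of calls below was not tested.

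For each metal and time, the counts were tested against the matching non-treated libraries with edgeR's quasi-likelihood test, and a gene was called at a Benjamini-Hochberg adjusted p under 0.05 over all genes tested. The 3 metals share the non-treated libraries of each time point, so their values are set side by side and not counted as repeats of each other. In bulk RNA, a change in RNA content per cell and a change in the number of cells cannot be told apart, and all values are relative to the total of each library. At 1.5 h, 0 of the 42 members were called for arsenic, cadmium or mercury, where 0.0729%, 0% and 0.567% of all genes were called in either direction. At 3 h the members called were again 0 for each metal, against 0.138%, 0.203% and 1.55% of all genes. At an unadjusted p under 0.05, 7, 4 and 1 members passed at 1.5 h. Of all 12341 genes tested, 1219, 991 and 694 did. At 3 h, 3, 1 and 2 members passed, against 909, 1010 and 1057 of all genes. DESeq2 called 0 members in all 6 of these comparisons. Without arsenic replicate 3, edgeR called 2 members at 1.5 h of arsenic.

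At 6 h, mercury raised 3 members (7.14%), against 4.49% of all genes, and 0 fell, against 2.99%. These were the lid subunits PSMD14, PSMD11 and PSMD13. When libraries were scaled by their total only, 2 members were higher and 1 lower, and without mercury replicate 3 of that time 5 were higher. Arsenic and cadmium moved 0 members at 6 h, where 0.608% and 1.6% of all genes were higher and 0.308% and 0.446% lower. An unadjusted p under 0.05 was reached by 3 and 0 members, against 1164 and 1630 of the 12341 genes tested. DESeq2 called 0 members for both metals.

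At 12 h, 11 members were higher with mercury (26.2%), against 8.89% of all genes, and 1 was lower (2.38%), against 7.16%. The lower call remained only in the fit without non-treated replicate 2 among those that left out a library. Arsenic raised 1 member, PSMD1, against 2.37% of all genes, and lowered 0, against 1.74%. Cadmium moved 0 members, although 5.19% of all genes were higher and 2.99% lower. An unadjusted p under 0.05 was reached by 7 of the 42 members and by 2612 of the 12341 genes tested. DESeq2 called 1 member, PSMB7. Leaving out 1 library, edgeR called PSMB3 and PSMD12 higher without cadmium replicate 1 (2 members), PSMC6 higher and PSME3 lower without non-treated replicate 2, and PSMB7 higher without non-treated replicate 3.

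At 24 h, mercury raised 17 of the 42 members (40.5%), against 13.9% of all genes, and lowered 2 (4.76%), against 13.9%. The 2 were 1 in each fit that left out a library other than non-treated replicate 3. Arsenic raised 6 (14.3%), against 6.54% of all genes, and lowered 1 (2.38%), against 7.75%. Without arsenic replicate 2 the 6 were 2, and without non-treated replicate 2 the members lowered by arsenic were 2. Cadmium moved 0 in either direction, where 1.56% of all genes were higher and 0.632% lower. An unadjusted p under 0.05 was reached by 1 member and by 1574 of the 12341 genes tested, and DESeq2 called 0 members. Cadmium replicate 3 of 24 h stood apart from replicates 1 and 2 for several members, in both directions. PSMA5 had 31.6 CPM there against 71.4 and 75.02 CPM, and PSMB7 had 768 CPM against 634 and 595 CPM. In the fit without this library, edgeR called no member with cadmium at 24 h. The 11 members that were higher with mercury at 12 h were all among the 17 at 24 h. These comparisons share no library, but they come from the same fit with a common estimate of each gene's spread. The same overlap over all genes was not computed. Over all metals and times, 21 members were called at least once, 18 of them higher and 3 lower, and the other 21 were not called in any of the 15 comparisons. The matching share of all genes was not computed, and mercury at 24 h alone called 13.9% of them higher and 13.9% lower. Called members past the study's size threshold, a log2 fold change (LFC) of 1 in either direction, numbered 0 in each comparison, and PSMA5 with mercury at 24 h came closest, at 0.999. Of the 12341 genes tested, 921 were called past it with mercury, 409 with arsenic and 77 with cadmium at 24 h, and 463 with mercury at 12 h. At 1.5 h the counts were 27, 1 and 0 for mercury, arsenic and cadmium.

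**Figure D1:**
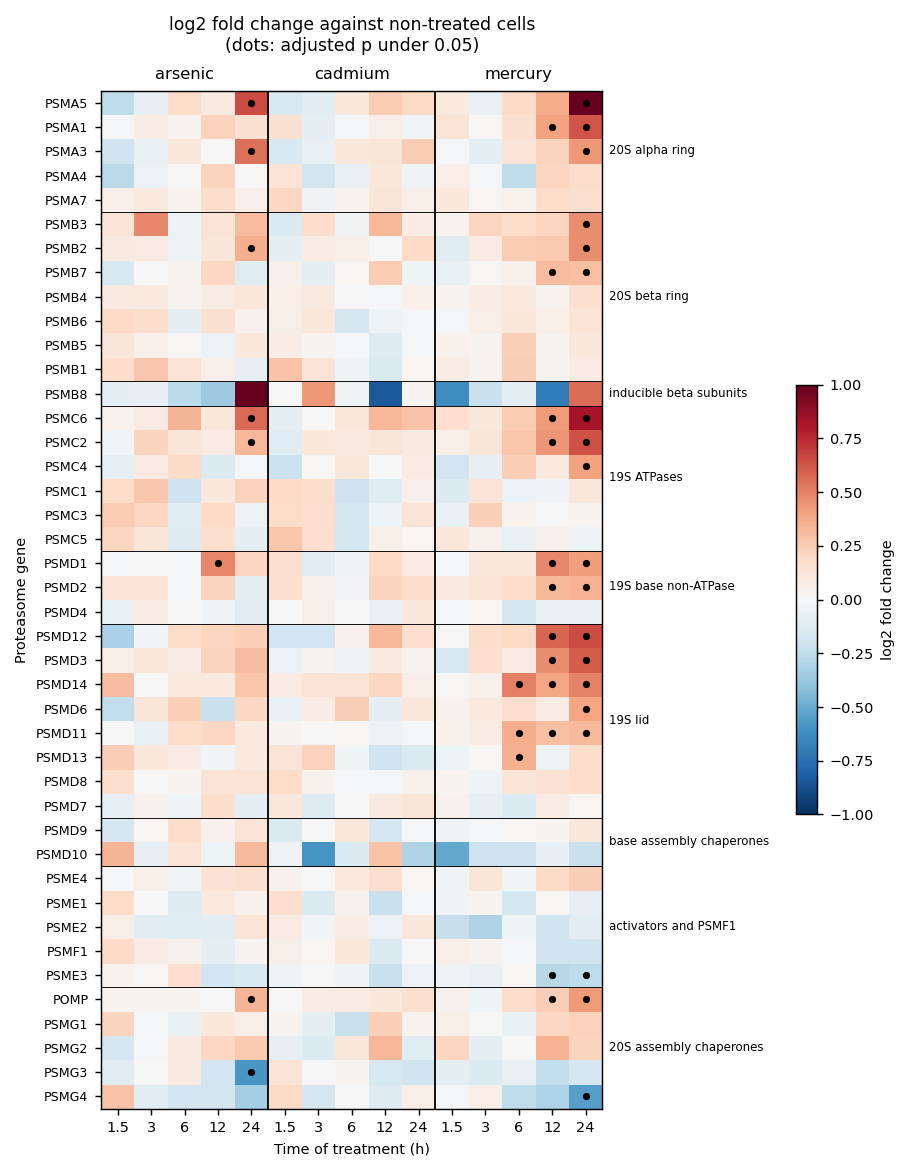
Log2 fold change (LFC) of the 42 tested proteasome genes (rows, grouped by role) for each metal and time in hours (columns) against non-treated cells, with a dot where the adjusted p was under 0.05. Dots are absent at 1.5 h and 3 h and in all cadmium columns, and the mercury column at 24 h holds 19 of them.

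The shift of the whole set was small. The median LFC of the members at 24 h was 0.20 with mercury, 0.12 with arsenic and 0.045 with cadmium, against medians of -0.021, 0.00041 and -0.0069 over all genes tested. With mercury, 33 of the 42 members had a positive LFC at 24 h (78.6%), compared with 48.2% of all genes. At 12 h the medians were 0.12 with mercury, 0.10 with arsenic and 0.031 with cadmium. The arsenic median at 12 h was 0.058 without arsenic replicate 3. The cadmium median at 12 h was -0.010 without non-treated replicate 2 and -0.038 when libraries were scaled by their total only, and the medians at 24 h stayed positive for all 3 metals under each scaling tried. The summed CPM of the members at 24 h was 9599.6 ± 320 (SD, n = 3) without metal, 10111 ± 133 for arsenic, 9919 ± 610 for cadmium and 11344 ± 256 for mercury. The lowest mercury library, at 11060 CPM, lay above the highest non-treated library, at 9865 CPM. The cadmium libraries ran from 9451 to 10609 CPM, with the largest SD of all groups of treatment and time.

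**Figure D2:**
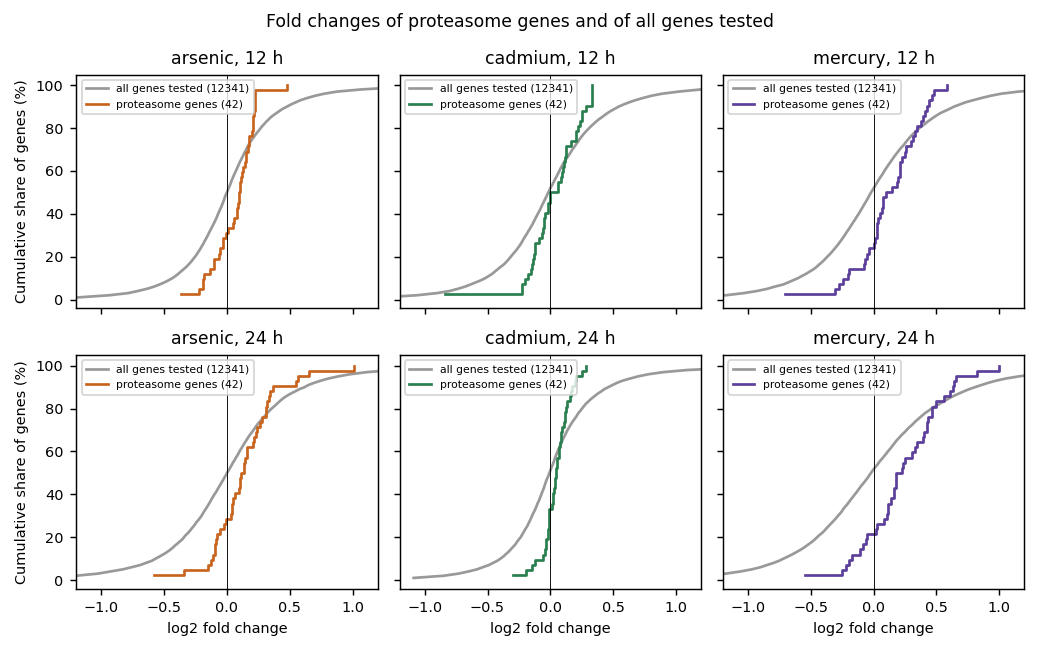
Cumulative share of genes (vertical axis, %) by log2 fold change against non-treated cells (horizontal axis) at 12 h and 24 h, with the 42 proteasome genes in colour and percentiles of all 12341 genes tested in grey. With mercury at 24 h the median of the proteasome genes lies at 0.20 and that of all genes at -0.021, whereas with cadmium the proteasome genes stay close to 0, with a median of 0.045.

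Of the alpha ring, which gates entry into the core, 5 of 8 members were tested, and 3 rose with mercury at 24 h. PSMA5 (chromosome 1, 109399042 to 109426448, minus strand, GRCh38) measured 48.7, 45.2 and 63.5 CPM in the 3 non-treated libraries at 24 h and 102, 102 and 111 CPM in the mercury libraries. The arsenic libraries had 68.9, 91.5 and 86.9 CPM, and the cadmium libraries 71.4, 75.02 and 31.6 CPM. All arsenic and mercury libraries lay above all non-treated ones, and mercury above arsenic, whereas the cadmium libraries spanned a wider range than the other groups of that time. The LFC of PSMA5 was 0.999 ± 0.18 (SE; edgeR, adjusted p = 1.22e-05) with mercury and 0.65 ± 0.18 (adjusted p = 0.00856) with arsenic. The arsenic call was lost without arsenic replicate 2 (LFC 0.57, adjusted p = 0.0597), non-treated replicate 1 (0.60, adjusted p = 0.0522) or non-treated replicate 2 (0.56, adjusted p = 0.0692). The non-treated level at 24 h was itself below the 68.5 to 71.4 CPM at 1.5 h, although that difference (LFC -0.42) was not called.

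PSMA3 had 96.8, 115 and 154 CPM in non-treated cells at 24 h, 156, 194 and 186 CPM with arsenic, 168, 165 and 160 CPM with mercury, and 153, 176 and 104 CPM with cadmium. Non-treated replicate 3 was the highest of its group and cadmium replicate 3 the lowest of its group, as for PSMA5. The rise for arsenic had an LFC of 0.55 ± 0.14 (adjusted p = 0.00291), and that for mercury 0.43 ± 0.14 (adjusted p = 0.0141). Without non-treated replicate 1, they were 0.41 (adjusted p = 0.073) and 0.29 (adjusted p = 0.175), and without non-treated replicate 2 the mercury value was 0.39 (adjusted p = 0.0623). PSMA1 was called with mercury alone, with a rise of 0.41 ± 0.11 at 12 h (adjusted p = 0.00675) and 0.63 ± 0.11 at 24 h (adjusted p = 6.46e-06). Its mercury libraries at 24 h had 168, 159 and 152 CPM, above the 102, 103 and 105 CPM of the non-treated libraries, and the arsenic libraries, at 97.0, 125 and 122 CPM, overlapped the latter. PSMA4 and PSMA7 were not called for any metal or time, with LFCs of 0.18 and 0.16 with mercury at 24 h.

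The beta ring holds the catalytic subunits PSMB5 (chymotrypsin-like), PSMB6 (caspase-like) and PSMB7 (trypsin-like), and all 7 of its constitutive members were tested. PSMB7 was the only catalytic subunit called with a metal. It had 717, 696 and 644 CPM in non-treated cells at 24 h and 830, 844 and 863 CPM with mercury, groups that did not overlap. The rise had an LFC of 0.32 ± 0.087 at 12 h (adjusted p = 0.0065) and 0.30 ± 0.086 at 24 h (adjusted p = 0.00554), and the 12 h call was lost without non-treated replicate 1 (LFC 0.27, adjusted p = 0.0607). With arsenic at 24 h it measured 572, 605 and 710 CPM, and with cadmium 634, 595 and 768 CPM, both overlapping the non-treated libraries.

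PSMB5 had 406, 386 and 389 CPM in non-treated cells at 24 h, 456, 418 and 395 CPM with arsenic, 398, 370 and 406 CPM with cadmium, and 386, 424 and 459 CPM with mercury. All 4 groups overlapped. The LFC with mercury was 0.10, with a 95% interval from -0.064 to 0.27, so an increase as large as that of PSMA5 lay outside the interval. PSMB6 had 267, 263 and 223 CPM in non-treated cells, 269, 267 and 240 CPM with arsenic, 232, 223 and 291 CPM with cadmium, and 269, 287 and 274 CPM with mercury at 24 h. Its mercury libraries lay above the non-treated ones by an LFC of 0.14 with an interval from -0.046 to 0.32, and it was not called with any metal.

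Among the structural beta subunits, PSMB2 rose at 24 h of arsenic (LFC 0.36 ± 0.10, adjusted p = 0.00732) and of mercury (0.46 ± 0.10, adjusted p = 0.000213). Its non-treated libraries had 193, 177 and 206 CPM, and the arsenic libraries, at 255, 271 and 217 CPM, and the mercury libraries, at 254, 270 and 272 CPM, all lay above them. The arsenic call was lost without arsenic replicate 2 (LFC 0.30, adjusted p = 0.0783) or non-treated replicate 2 (0.31, adjusted p = 0.0657). PSMB3 rose with mercury at 24 h, from 93.5, 80.2 and 109 CPM to 123, 145 and 124 CPM (LFC 0.47 ± 0.13, adjusted p = 0.00546), and the call was lost without mercury replicate 2 (0.38, adjusted p = 0.0522) or non-treated replicate 2 (0.36, adjusted p = 0.0654). It also had the largest positive LFC of the members at 3 h of arsenic, where 103, 122 and 107 CPM stood against 66.1, 85.9 and 85.7 CPM in non-treated cells. That LFC of 0.48 ± 0.14 did not pass over all genes (adjusted p = 0.198), and at 12 h of cadmium the PSMB3 libraries, at 86.2, 112 and 123 CPM against 84.5, 92.6 and 79.6 CPM, gave 0.33 (adjusted p = 0.124). PSMB1 and PSMB4 were not called by edgeR against non-treated cells, and their LFCs at 24 h of mercury were 0.085 and 0.16. DESeq2 called PSMB4 there (0.18, adjusted p = 0.043).

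The inducible subunits, which replace the catalytic ones in the immunoproteasome of cells exposed to interferon, had low counts, which for PSMB10 are no measure of its level. PSMB8, the only tested one, had 7.73, 6.15 and 2.60 CPM in non-treated cells at 24 h, 11.0, 11.6 and 10.9 CPM with arsenic, 6.36, 6.01 and 4.31 CPM with cadmium, and 6.61, 8.68 and 9.25 CPM with mercury. Its arsenic libraries lay above all others of that time, with an LFC of 1.01 ± 0.41 that was not called (adjusted p = 0.0878). At 12 h the non-treated libraries, at 6.71, 11.4 and 9.69 CPM, overlapped the arsenic libraries, at 8.13, 6.04 and 7.37 CPM, and the mercury libraries, at 9.41, 5.83 and 2.24 CPM, and lay above the cadmium libraries, at 4.99, 5.52 and 4.92 CPM. The cadmium LFC there was -0.84 ± 0.43 (adjusted p = 0.251) and the mercury LFC -0.70 ± 0.42 (adjusted p = 0.282), the largest in size among the members for both metals at that time. At these counts, with a median of 22.5 reads in a library, differences of this size could not be separated from the spread.

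PSMB9 had 1.03, 0.922 and 3.46 CPM in non-treated cells at 24 h, 0.669, 0.579 and 2.36 CPM with arsenic, 0.682, 1.72 and 2.16 CPM with cadmium, and 0, 0 and 1.65 CPM with mercury, mostly near the floor of 3 counts. PSMB10 stayed at or below 1.15 CPM in every library, and at 24 h it was at 0.258, 0 and 1.15 CPM without metal, 0, 0.868 and 0 CPM with arsenic, 0, 0 and 0.359 CPM with cadmium and 0 CPM in all 3 mercury libraries. No difference was detectable for either at this depth, and for PSMB10 the overlap with another gene limits the count itself.

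The ATPases of the base, which unfold substrates, contained the member with the smallest p of the comparisons with non-treated cells. PSMC6 (chromosome 14, 52707178 to 52728590, plus strand) had 72.6, 70.7 and 92.9 CPM in non-treated cells at 24 h, 96.0, 130 and 124 CPM with arsenic, 98.4, 108 and 80.8 CPM with cadmium, and 140, 142 and 136 CPM with mercury. Arsenic and mercury libraries all lay above the non-treated ones, and the cadmium libraries overlapped them. The LFC was 0.82 ± 0.12 with mercury (adjusted p = 1.81e-07) and 0.57 ± 0.12 with arsenic (adjusted p = 0.000505), and both calls were kept without any 1 library. Cadmium gave its largest positive member LFC at 24 h here, 0.29 with an interval from 0.039 to 0.53, which was not called (adjusted p = 0.29). At 12 h, mercury raised PSMC6 by 0.43 ± 0.12 (adjusted p = 0.00995), from 84.7, 104 and 88.3 CPM to 113, 145 and 113 CPM, and at 6 h of arsenic it had the largest member LFC (0.34, adjusted p = 0.274), with 103, 117 and 116 CPM against 95.5, 87.4 and 83.5 CPM. The 12 h call was lost without mercury replicate 2 (0.29, adjusted p = 0.161) or non-treated replicate 1 (0.36, adjusted p = 0.0791).

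PSMC2 rose with mercury at 12 h (LFC 0.44 ± 0.10, adjusted p = 0.0012) and 24 h (0.64 ± 0.10, adjusted p = 1.35e-06), and with arsenic at 24 h (0.33 ± 0.10, adjusted p = 0.0214). The non-treated libraries at 24 h had 116, 130 and 156 CPM, the arsenic libraries 167, 173 and 166 CPM, and the mercury libraries 210, 212 and 204 CPM, so the 3 groups did not overlap. The arsenic call was lost without non-treated replicate 1 (0.23, adjusted p = 0.207), non-treated replicate 2 (0.31, adjusted p = 0.0819) or arsenic replicate 2 (0.32, adjusted p = 0.0744), and with no filter on low counts (0.33, adjusted p = 0.0653). PSMC4 rose with mercury at 24 h by 0.40 ± 0.085 (adjusted p = 0.000142), from 320, 323 and 328 CPM to 451, 438 and 394 CPM, while its arsenic LFC was -0.022. PSMC1, PSMC3 and PSMC5 were not called, with LFCs of 0.11, 0.030 and -0.050 at 24 h of mercury.

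**Figure D3:**
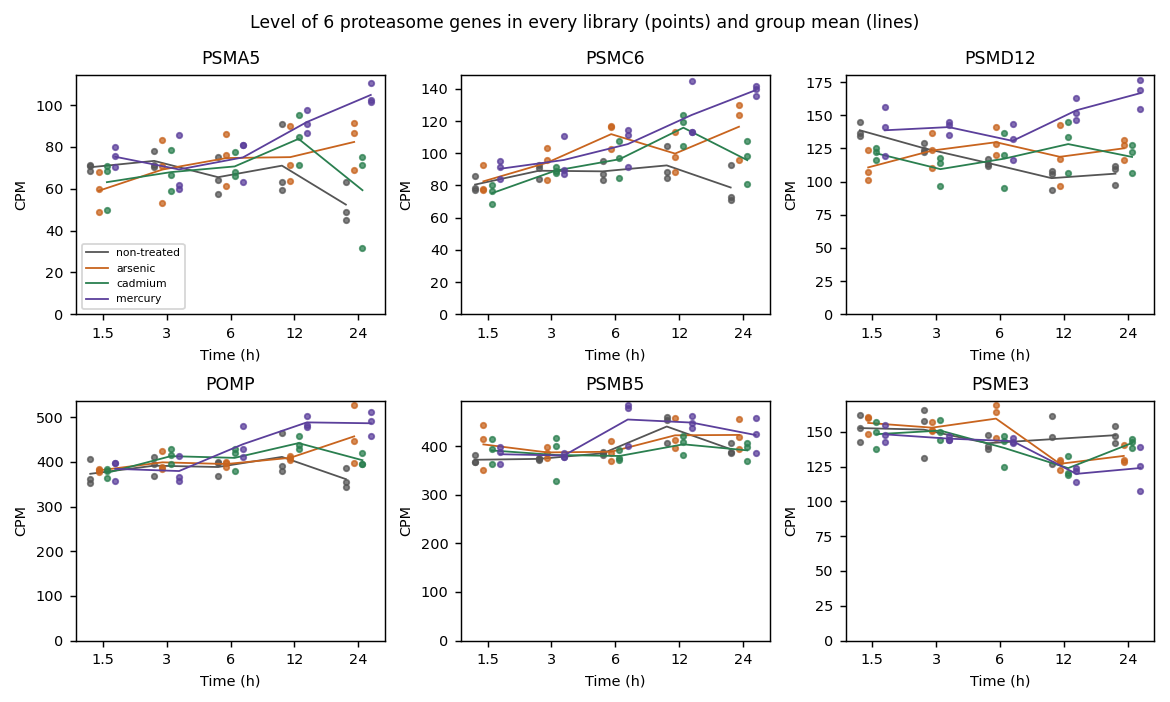
Level of PSMA5, PSMC6, PSMD12, POMP, PSMB5 and PSME3 in CPM (vertical axis) at each time in hours (horizontal axis, evenly spaced), with a point for each library and a line through the means of 3 libraries. The mercury points of PSMA5, PSMC6, PSMD12 and POMP lie above all non-treated points at 24 h, those of PSMB5 overlap them, and those of PSME3 lie below them.

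Of the 3 other base subunits, the scaffold PSMD1, which carries a docking site for ubiquitin receptors, rose with arsenic as well as with mercury at 12 h. It had 454, 377 and 453 CPM in non-treated cells at 12 h, 629, 613 and 548 CPM with arsenic, 483, 490 and 505 CPM with cadmium, and 585, 586 and 624 CPM with mercury. Every treated library lay above every non-treated one. The LFC was 0.48 ± 0.086 with arsenic (adjusted p = 5.78e-05), 0.48 ± 0.086 with mercury (adjusted p = 1.7e-05), and 0.20 with cadmium, which was not called. At 24 h it was called with mercury alone (0.42 ± 0.086, adjusted p = 8.71e-05). PSMD2, the other scaffold, rose with mercury at 12 h (0.33 ± 0.10, adjusted p = 0.0151) and 24 h (0.35 ± 0.10, adjusted p = 0.00624), where its mercury libraries, at 605, 663 and 672 CPM, lay above the 532, 580 and 414 CPM of the non-treated ones. Without non-treated replicate 2 the former was 0.25 (adjusted p = 0.133), and without non-treated replicate 3 the latter was 0.22 (adjusted p = 0.122). The ubiquitin receptor PSMD4 was not called, at -0.064 with mercury at 24 h.

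The lid, which removes ubiquitin chains, was the group with the most calls at 24 h of mercury, where 5 of its 8 members rose. It was also the group with the most members tested. Its deubiquitinase PSMD14 was called at 6 h, with 203, 170 and 185 CPM in non-treated cells and 259, 298 and 233 CPM with mercury (LFC 0.50 ± 0.10, adjusted p = 0.000458). It remained called at 12 h (0.39 ± 0.10, adjusted p = 0.00432) and 24 h (0.49 ± 0.10, adjusted p = 0.000132), where the non-treated libraries had 191, 212 and 200 CPM and the mercury libraries 268, 286 and 294 CPM. With arsenic at 24 h, its libraries, at 262, 254 and 213 CPM, also lay above the non-treated ones, and the LFC of 0.28 ± 0.10 was not called (adjusted p = 0.0623). It was called with library size only (adjusted p = 0.0474), with a stricter filter of at least 30 counts in 3 libraries (adjusted p = 0.0461), and without arsenic replicate 3 (0.36, adjusted p = 0.0237). PSMD11, which helps to join the lid to the base, was called at the same 3 times. Its libraries at 6 h had 486, 580 and 506 CPM without and 664, 696 and 665 CPM with mercury. The LFC was 0.36 ± 0.072 at 6 h (adjusted p = 0.000216), 0.30 ± 0.072 at 12 h (adjusted p = 0.00166) and 0.33 ± 0.072 at 24 h (adjusted p = 0.000301). PSMD13, a structural lid subunit like PSMD3, PSMD6 and PSMD12, was called at 6 h, with 208, 193 and 222 CPM in non-treated cells against 253, 311 and 235 CPM (0.36 ± 0.11, adjusted p = 0.0409). It was not called later, at 0.18 with mercury and -0.15 with cadmium at 24 h, where the non-treated, arsenic, cadmium and mercury libraries ranged over 201 to 244, 224 to 262, 173 to 238 and 227 to 276 CPM.

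PSMD12 (chromosome 17, 67337916 to 67366605, minus strand) had the largest positive member LFC at 12 h of mercury. It measured 94.0, 106 and 108 CPM in non-treated cells, 96.4, 117 and 143 CPM with arsenic, 106, 134 and 145 CPM with cadmium, and 152, 163 and 147 CPM with mercury. The mercury libraries lay above all others of that time. The LFC was 0.58 ± 0.12 at 12 h (adjusted p = 0.000128) and 0.65 ± 0.12 at 24 h (adjusted p = 7.73e-06), where the libraries had 112, 97.1 and 109 CPM without and 169, 177 and 155 CPM with mercury. PSMD3 followed the same times, with 0.46 ± 0.11 (adjusted p = 0.00206) and 0.61 ± 0.11 (adjusted p = 1.56e-05), and its 24 h libraries had 148, 164 and 137 CPM without and 227, 240 and 216 CPM with mercury. Its arsenic LFC of 0.31 at 24 h was just outside the threshold (adjusted p = 0.0532) and inside it with RLE size factors, the stricter filter, the replicate block and DESeq2. PSMD6 rose with mercury at 24 h by 0.40 ± 0.12 (adjusted p = 0.0114), from 71.1, 83.9 and 87.1 CPM to 104, 97.3 and 117 CPM, a call lost without mercury replicate 3 (0.32, adjusted p = 0.0815) or non-treated replicate 1 (0.31, adjusted p = 0.099). At 6 h of cadmium it had 98.6, 96.4 and 107 CPM against 80.8, 87.0 and 87.3 CPM, the largest member LFC of that comparison (0.24), which was not called (adjusted p = 0.407). PSMD7 and PSMD8 were not called, at 0.020 and 0.18 with mercury at 24 h.

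The assembly chaperones were called in both directions. POMP (chromosome 13, 28659065 to 28678959, plus strand), the maturation factor that completes the core, had 355, 343 and 387 CPM in non-treated cells at 24 h, 446, 527 and 398 CPM with arsenic, 396, 395 and 420 CPM with cadmium, and 511, 457 and 491 CPM with mercury. All treated libraries lay above the non-treated ones. It rose with mercury (LFC 0.43 ± 0.083, adjusted p = 3.71e-05) and arsenic (0.34 ± 0.083, adjusted p = 0.00222), whereas the cadmium value of 0.16 was not called (adjusted p = 0.419). The arsenic call was lost without arsenic replicate 2 (0.22, adjusted p = 0.0967). At 12 h, the mercury libraries had 483, 479 and 502 CPM against 379, 464 and 390 CPM, and the rise of 0.25 ± 0.083 (adjusted p = 0.0279) was lost in 5 of the 6 fits that left out a library (each but that without non-treated replicate 2), with adjusted p up to 0.191, with library size scaling and without a filter.

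The chaperones of the alpha ring went the other way or were not called. PSMG3 fell with arsenic at 24 h by 0.58 on the log2 scale (SE 0.12, adjusted p = 0.000158), from 266, 299 and 232 CPM to 191, 168 and 174 CPM, and the call was kept without any 1 library. Its cadmium libraries had 206, 211 and 281 CPM and its mercury libraries 233, 245 and 230 CPM, and neither was called. PSMG4 fell with mercury at 24 h by 0.55 (SE 0.15, adjusted p = 0.00447), from 49.2, 35.3 and 47.6 CPM to 25.2, 30.1 and 35.3 CPM, and was not called without mercury replicate 1 (-0.43, adjusted p = 0.0553). With arsenic it had 37.5, 36.2 and 31.2 CPM (LFC -0.34, adjusted p = 0.13) and with cadmium 45.2, 39.5 and 53.5 CPM. PSMG1 and PSMG2 were not called, with LFCs of 0.23 and 0.23 with mercury at 24 h. Of the base chaperones, PSMD9 and PSMD10 were not called. PSMD10 had 11.6, 14.4 and 11.5 CPM in non-treated cells at 24 h, 14.4, 15.3 and 17.1 CPM with arsenic, 12.3, 11.2 and 6.47 CPM with cadmium, and 12.0, 9.30 and 10.9 CPM with mercury. At 3 h of cadmium it gave -0.59 ± 0.28 (adjusted p = 0.579), with 8.38, 8.05 and 6.82 CPM against 16, 8.08 and 10.9 CPM.

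No activator was called higher. PSME3, the nuclear activator PA28 gamma, fell with mercury at 12 h by 0.27 (SE 0.093, adjusted p = 0.0313) and at 24 h by 0.25 (SE 0.092, adjusted p = 0.033). At 24 h it had 147, 154 and 142 CPM in non-treated cells, 128, 140 and 130 CPM with arsenic, 138, 143 and 145 CPM with cadmium, and 139, 126 and 108 CPM with mercury. At 12 h, 146, 127 and 161 CPM without metal stood against 122, 124 and 114 CPM with mercury. The mercury libraries lay below the non-treated ones at both times, but of the fits that left out a library, 5 of 6 lost the call at 12 h (each but that without non-treated replicate 2, adjusted p up to 0.233). At 24 h, 4 of 6 lost it (without mercury replicate 2 or 3 or non-treated replicate 1 or 2, adjusted p up to 0.257). The cytoplasmic PA28 subunits PSME1 and PSME2, the activator PSME4 (PA200) and PSMF1, known as an inhibitor of the core, were not called. PSME4 had 0.25 with mercury at 24 h (adjusted p = 0.0587) and was called with RLE size factors, with the stricter filter and by DESeq2. The lowest member LFC at 3 h of mercury was that of PSME2, -0.30 ± 0.15 (adjusted p = 0.583), with 33.1, 41.1 and 46.5 CPM against 48.3, 47.3 and 53.5 CPM.

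**Figure D4:**
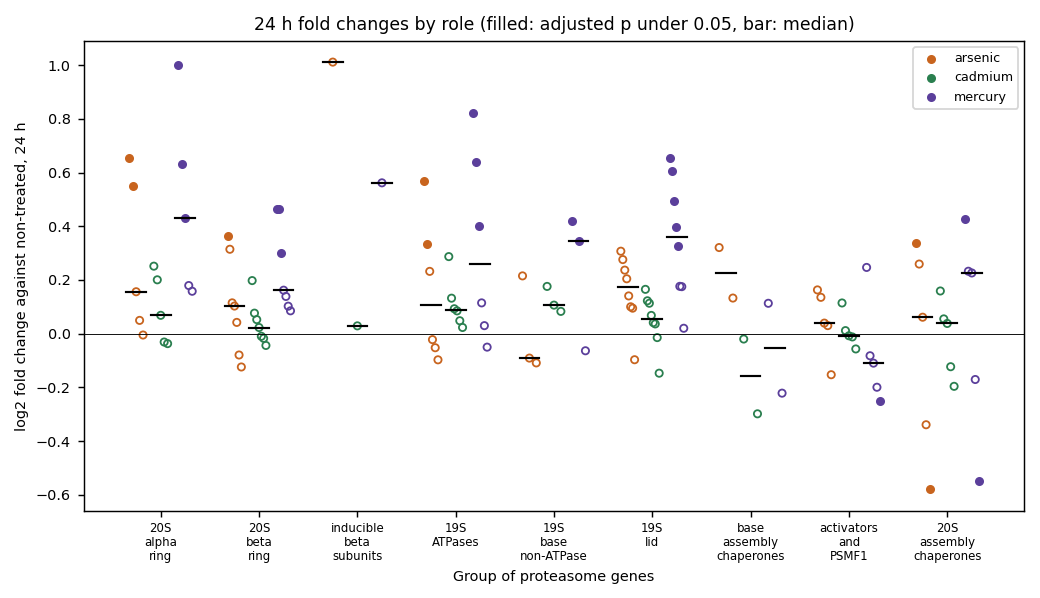
Log2 fold change of each tested proteasome gene at 24 h (vertical axis) by role (horizontal axis) for arsenic, cadmium and mercury, with filled points for genes called at an adjusted p under 0.05 and a bar at the median of each group. With mercury the medians were 0.43 in the alpha ring, 0.16 in the beta ring, 0.26 in the ATPases and 0.36 in the lid, and -0.11 in the activators.

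By role, the median LFC at 24 h of mercury was 0.43 over 5 alpha subunits, 0.16 over 7 beta subunits, 0.26 over 6 ATPases, 0.35 over the 3 other base subunits and 0.36 over 8 lid subunits. It was -0.11 over 5 genes, the activators and PSMF1. With arsenic the same groups had medians of 0.16, 0.10, 0.11, -0.091, 0.17 and 0.039, and with cadmium 0.068, 0.023, 0.089, 0.11, 0.055 and -0.0077. With mercury the ATPases ran from -0.050 (PSMC5) to 0.82 (PSMC6) and the beta ring from 0.085 (PSMB1) to 0.47 (PSMB3).

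The metals were also compared directly, without the non-treated libraries. Each metal was given at a single dose, described in the paper as equally toxic, so a metal and its dose cannot be told apart. At 24 h, 15 members were lower with cadmium than with mercury (35.7%), against 10.3% of all genes, and 1, PSMG4, was higher (2.38%), against 9.7%. Without mercury replicate 1 the latter count was 3. Among the members lower with cadmium, the largest difference was that of PSMA5, with an LFC of -0.80 ± 0.18 for cadmium minus mercury (adjusted p = 0.000563), followed by PSMA1 (-0.66 ± 0.11, adjusted p = 5.14e-06), PSMD3 (-0.57 ± 0.11, adjusted p = 8.1e-05) and PSMC2 (-0.55 ± 0.10, adjusted p = 4.8e-05). The PSMA5 cadmium libraries had 71.4, 75.02 and 31.6 CPM. Single genes of the direct comparisons were not followed in the fits that left out a library. Between arsenic and mercury at 24 h, 8 members were lower with arsenic (19%), against 6.78% of all genes, and 0 were higher, against 4.59%. Without mercury replicate 2 the 8 were 4, and without mercury replicate 1 the members higher with arsenic were 1. These were PSMA1, PSMD2, PSMB7, PSMC4, PSMD12, PSMG3, PSMC2 and PSMD11, with LFCs from -0.47 for PSMA1 to -0.23 for PSMD11. PSMA5, PSMC6, PSMA3, PSMB2 and POMP, which both metals raised, were not called between them. Arsenic and cadmium at 24 h differed for 1 member, PSMG3, lower with arsenic (-0.38 ± 0.12, adjusted p = 0.0224), against 5.96% of all genes, and 0 were higher, against 4.2%. Without arsenic replicate 2 the lower count was 0, and without cadmium replicate 2 the counts were 4 lower and 3 higher. The 6 members that arsenic raised were not called between arsenic and cadmium, and for PSMA5 the difference was 0.45, with a 95% interval from 0.094 to 0.81 (adjusted p = 0.0999).

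At 12 h, 2 members were higher with arsenic than with cadmium, PSMD1 (0.28 ± 0.086, adjusted p = 0.0388) and PSMD11 (0.25 ± 0.072, adjusted p = 0.0227), against 1.9% of all genes, and 0 were lower, against 3.87%. The count of higher members was 0 or 1 in each of the 6 fits that left out a library, and 0 without arsenic replicate 1. Compared with mercury, 3 were lower with arsenic (PSMD12, PSMC2 and POMP, -0.37 to -0.26), against 4.42% of all genes, and 0 higher, against 2.42%. Without arsenic replicate 1 the 3 were 0, and without arsenic replicate 3 they were 5. Only PSMD11 was lower with cadmium than with mercury (-0.35 ± 0.073, adjusted p = 0.0011), against 1.81% of all genes, and 0 were higher, against 1.48%. Without mercury replicate 1, 3 were lower.

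The differences between 12 h and 24 h were tested as interactions, the effect at 24 h minus that at 12 h, with each time set against its own non-treated libraries. None of the 42 members was called for arsenic, cadmium or mercury (0 each), against 1.57%, 0.381% and 0.624% of all genes. An unadjusted p under 0.05 was reached by 11, 1 and 4 members, against 1714, 1240 and 1268 of the 12341 genes tested. DESeq2 called 1, 0 and 0 members. Without arsenic replicate 3 of 24 h, edgeR called 1 for arsenic. For PSMA5 the mercury effect was larger at 24 h by 0.62 ± 0.25 (adjusted p = 0.335) and for PSMC6 by 0.40 ± 0.17 (adjusted p = 0.38), so a difference in the response between these times was not separated from the spread. The non-treated cells drifted over the time course: 3 members differed between 24 h and 1.5 h (2 higher and 1 lower), against 3.29% of all genes in either direction. PSMB6 was higher at 24 h, at 267, 263 and 223 CPM against 196, 204 and 181 CPM (LFC 0.37 ± 0.094, adjusted p = 0.0121), and so was PSMB1 (0.36 ± 0.10, adjusted p = 0.0377). PSMD12 was lower (-0.39 ± 0.12, adjusted p = 0.0489), from 145, 134 and 137 CPM at 1.5 h to 112, 97.1 and 109 CPM, so the mercury libraries at 24 h lay closer to the non-treated level of 1.5 h than to that of 24 h. The 3 calls were 0 without non-treated replicate 1 of 24 h and 3 without its replicate 3.

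Other genes of the pathway were taken from a list of 30 partners and regulators, all of which were tested. The list was chosen with earlier results of these data known. Percentages here are of all genes called in the same direction. With mercury 3 were higher at 3 h, against 172 of the 12341 genes tested, and 8 at 6 h (4.49%). At 12 h 11 were higher (8.89%), and at 24 h 17 (13.9%). IPO9, which imports proteasomes into the nucleus, was the 1 lower at 24 h (13.9%). The median LFC of the list at 24 h of mercury was 0.43. With arsenic 5 were higher at 12 h (2.37%), and 7 were higher (6.54%) and 1 lower (7.75%) at 24 h. With cadmium 1 was higher at 6 h (1.6%) and 5 at 12 h (5.19%). At 24 h of cadmium 1 was higher (1.56%) and 1 lower (0.632%).

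With mercury at 24 h, the largest changes in the list were those of the proteasome-associated zinc finger proteins, which help substrates into the proteasome. ZFAND2A, an arsenite-inducible cofactor also known as AIRAP, had 4.38, 11.4 and 4.62 CPM in non-treated cells at 24 h, 12.7, 8.39 and 12.96 CPM with arsenic, 72.3, 87.0 and 115 CPM with cadmium, and 196, 220 and 209 CPM with mercury. The cadmium and mercury groups lay far above the others and did not overlap each other. For cadmium the LFC was 3.77 ± 0.25 (adjusted p = 1.87e-19), and for mercury it was 4.96 ± 0.25 (adjusted p = 2.79e-26). With arsenic at 12 h it was 1.02 ± 0.28 (adjusted p = 0.0172), from libraries of 25.8, 13.5 and 12.4 CPM, and that call was lost without arsenic replicate 1 (0.61, adjusted p = 0.369) or non-treated replicate 2 (0.86, adjusted p = 0.136). At 24 h of arsenic it was 0.76 (adjusted p = 0.0953), and 1.32 without non-treated replicate 2 (adjusted p = 0.00878). ZFAND2A was called with cadmium at 12 h (4.11) and 24 h, where edgeR called 0 proteasome genes.

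ZFAND5 had 85.0, 91.0 and 112 CPM in non-treated cells at 24 h, 143, 168 and 134 CPM with arsenic, 128, 128 and 104 CPM with cadmium, and 284, 253 and 256 CPM with mercury. It rose with mercury (LFC 1.46 ± 0.11, adjusted p = 1.38e-18) and arsenic (0.63 ± 0.11, adjusted p = 7.6e-06), and with cadmium at 12 h (0.63 ± 0.11, adjusted p = 1.27e-05). With cadmium at 24 h it was 0.33 (adjusted p = 0.103), and was called without cadmium replicate 3 (adjusted p = 0.0312) or non-treated replicate 3 (adjusted p = 0.0214). AKIRIN2, which carries proteasomes to the nucleus together with IPO9, had 17.8, 13.8 and 16.4 CPM in non-treated cells at 24 h, 29.4, 35.3 and 34.8 CPM with arsenic, 21.6, 27.8 and 15.1 CPM with cadmium, and 37.1, 44.3 and 41.3 CPM with mercury. Its LFC was 1.35 ± 0.21 with mercury (adjusted p = 5.15e-07) and 1.05 ± 0.21 with arsenic (adjusted p = 0.000189). At 12 h it rose with all 3 metals, by 1.001 ± 0.22 with cadmium (adjusted p = 0.000924), 0.83 ± 0.21 with arsenic (adjusted p = 0.0106) and 0.80 ± 0.22 with mercury (adjusted p = 0.00616). The arsenic call was lost without non-treated replicate 1 (0.58, adjusted p = 0.2) or 3 (0.76, adjusted p = 0.0619), and the mercury call without non-treated replicate 1 (0.55, adjusted p = 0.125). Cadmium at 24 h gave 0.43 (adjusted p = 0.399). At 24 h, IPO9 fell by 0.47 with mercury (adjusted p = 4.57e-05) and 0.35 with arsenic (adjusted p = 0.00496). With cadmium it fell by 0.32 (adjusted p = 0.0429). PITHD1, a proteasome-binding protein, rose by 1.27 ± 0.12 with mercury and 0.54 ± 0.12 with arsenic at 24 h. Of the list, only ZFAND2A, ZFAND5, AKIRIN2, ADRM1, SEM1 and NFE2L1 were followed as single genes in fits that left out a library.

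**Figure D5:**
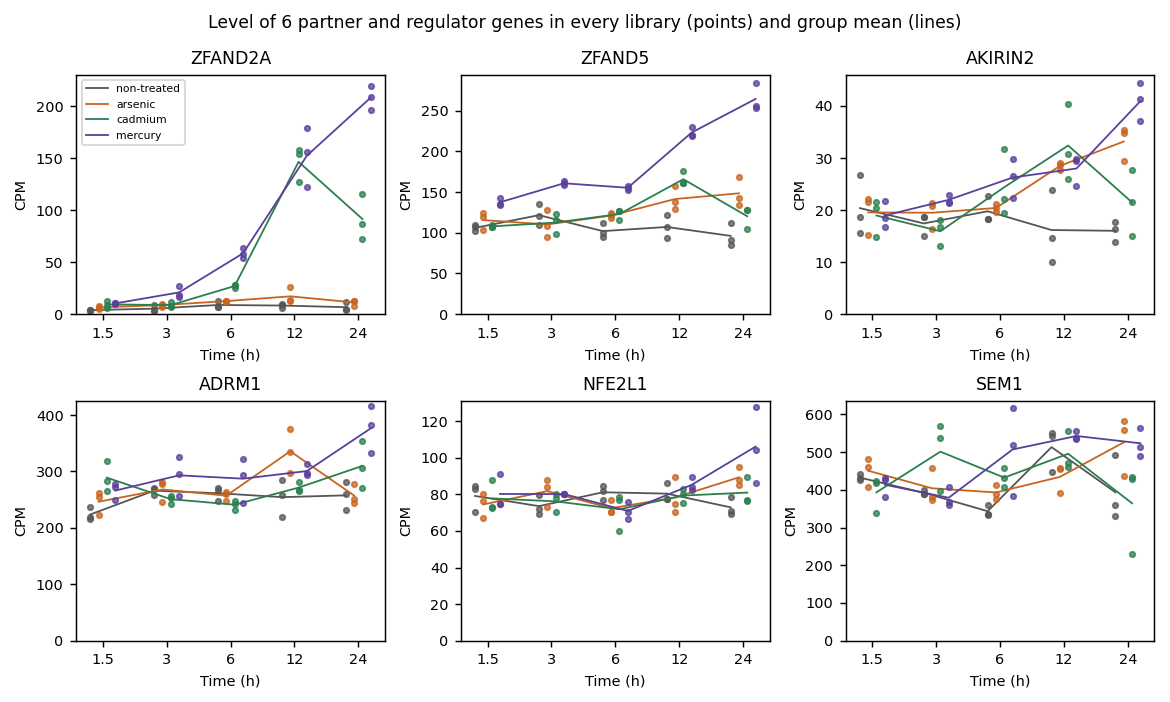
Level of ZFAND2A, ZFAND5, AKIRIN2, ADRM1, NFE2L1 and SEM1 in CPM (vertical axis) at each time in hours (horizontal axis, evenly spaced), with a point for each library and a line through the means of 3 libraries. ZFAND2A reaches 196 to 220 CPM with mercury and 72.3 to 115 CPM with cadmium at 24 h, while arsenic stays at or below 12.96 CPM at that time.

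The ubiquitin receptor ADRM1 rose with mercury at 24 h, from 261, 281 and 231 CPM to 333, 415 and 382 CPM (LFC 0.55 ± 0.099, adjusted p = 1.23e-05), and with arsenic at 12 h (0.40 ± 0.099, adjusted p = 0.00753), a call lost without arsenic replicate 1 (0.31, adjusted p = 0.122) or non-treated replicate 2 (0.30, adjusted p = 0.139). The small lid subunit SEM1 had 330, 359 and 492 CPM in non-treated cells at 24 h, 581, 559 and 438 CPM with arsenic, 434, 429 and 231 CPM with cadmium, and 491, 515 and 565 CPM with mercury. Non-treated replicate 3 overlapped both other groups, and the rises of 0.42 ± 0.14 with arsenic (adjusted p = 0.0297) and 0.41 ± 0.14 with mercury (adjusted p = 0.0188) were lost in 4 and 3 of 6 fits that left out a library. For both metals the largest adjusted p, 0.221 and 0.161, came without non-treated replicate 1, and the calls were also lost without non-treated replicate 2, without arsenic replicate 1 or 2, and without mercury replicate 3. NFE2L1, the regulator of proteasome genes, had 78.5, 71.0 and 69.2 CPM in non-treated cells and 104, 86.2 and 128 CPM with mercury at 24 h (0.54 ± 0.12, adjusted p = 0.000209). Of the factors that process its protein, the protease DDI2 rose by 0.57 and the segregase VCP by 0.45 with mercury at 24 h, and the glycanase NGLY1 was not called. NFE2L2, the regulator of antioxidant genes, rose by 0.91 ± 0.14 with mercury (adjusted p = 3.06e-07) and 0.42 ± 0.14 with arsenic (adjusted p = 0.0317).

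Since many members rose together with mercury, their promoters were read for 3 short motifs on both strands of the 250 bases before each start in the RefSeq table (GRCh38.p14), where 43 of the 49 members had an entry. PSMA7, PSMB1, PSMB6, PSMB7, PSMD4 and PSMG3 had none. The sequences of 4 members with large rises are shown 5′ to 3′ on the strand of the gene as DNA, with capitals where the antioxidant response element core TGACNNNGC or the CCAAT box CCAAT is found on either strand. They show that strongly raised members differ in these motifs. They are PSMA5 (chr1:109426449-109426698, minus strand), PSMC6 (chr14:52706950-52707199, plus strand), PSMD12 (chr17:67366578-67366827, minus strand) and PSMD3 (chr17:39980557-39980806, plus strand).
PSMA5: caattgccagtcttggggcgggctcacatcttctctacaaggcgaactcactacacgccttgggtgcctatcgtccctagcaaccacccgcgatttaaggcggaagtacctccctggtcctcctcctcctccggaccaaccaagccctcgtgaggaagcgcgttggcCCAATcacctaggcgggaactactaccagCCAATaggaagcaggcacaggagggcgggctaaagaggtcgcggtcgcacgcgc
PSMC6: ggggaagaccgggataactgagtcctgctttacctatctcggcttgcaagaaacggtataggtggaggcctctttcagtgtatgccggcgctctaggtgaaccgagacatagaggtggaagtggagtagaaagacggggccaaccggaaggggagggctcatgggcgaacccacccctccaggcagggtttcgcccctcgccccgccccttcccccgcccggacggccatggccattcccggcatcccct
PSMD12: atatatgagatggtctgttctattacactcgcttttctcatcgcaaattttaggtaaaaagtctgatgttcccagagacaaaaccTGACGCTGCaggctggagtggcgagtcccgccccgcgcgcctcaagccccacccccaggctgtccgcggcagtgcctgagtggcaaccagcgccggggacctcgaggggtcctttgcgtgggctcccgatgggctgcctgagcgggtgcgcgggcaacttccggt
PSMD3: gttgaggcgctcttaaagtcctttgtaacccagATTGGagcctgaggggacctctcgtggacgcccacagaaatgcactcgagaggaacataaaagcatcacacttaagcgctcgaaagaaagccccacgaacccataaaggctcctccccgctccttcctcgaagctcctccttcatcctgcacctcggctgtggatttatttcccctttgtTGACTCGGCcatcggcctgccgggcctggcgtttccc

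PSMA5 holds CCAAT at 2 places and no TGACNNNGC, PSMC6 holds neither, PSMD12 holds TGACNNNGC at 1 place, and PSMD3 holds both, the CCAAT box in reverse. Over the set, TGACNNNGC was found in 13 of 43 members (30.2%), compared with 10.9% of all 35093 promoters in the table and 11.6% of the 13801 promoters of genes tested. It was in 3 of 16 members that rose with mercury at 24 h (PSMB3, PSMD12 and PSMD3) and in 8 of 18 that were tested and not called. A gene counts as holding a motif if any of its listed promoters does, and 8 members have more than 1, whereas the shares of the table are per promoter. CCAAT was found in 19 members (44.2%), against 32% of all promoters and 33.7% of those of genes tested, in 7 of the 16 raised and 8 of the 18 not called. The heat-shock element core GAANNTTC was in 0 of the 43 members, against 5.78% of all promoters and 4.31% of those of genes tested. These are matches of letters in a short window and say nothing of binding.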

How the data were processed

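The 60 libraries were QuantSeq 3′ end libraries (FWD) of 1321N1 cells. Per the labels and the study's methods, reads were aligned by the authors to GRCh38 (STAR 2.7.9a in the submitters' processing notes), and the deposited table holds raw counts per GENCODE gene, made in Union mode, which drops reads on more than 1 gene. Nothing was normalized before deposit. From these counts, 92 spike-in rows with 0 counts were left out. Genes passing filterByExpr (minimum count 10, minimum total 15) entered a common fit with edgeR 4.0.16 under R 4.3.3 (limma 3.58.1), with TMM factors, 20 group coefficients and quasi-likelihood F tests, adjusted by Benjamini-Hochberg over all genes of a comparison. CPM use TMM library sizes. Intervals are at 95%, and the floor of 3 counts covers counting error only.

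The members and lists were chosen with earlier results of these data known. Single-library values were given for POMP, the catalytic and inducible subunits, and the 3 highest and 3 lowest members of each metal at 24 h. They were also given for the largest difference at 3, 6 and 12 h. These values cover part of the groups only. ADRM1, SEM1, NFE2L1 and the 3 partners with the largest differences were treated likewise. Further members were given values because they were called. The replicate numbers were not used to pair the samples in the main fit. No replicate pair agreed within sampling noise (smallest chi-square over its degrees of freedom, 1.99). Alternatives were RLE size factors, library size only, no filter, at least 30 counts in 3 libraries, a replicate block, an adjusted p under 0.01, DESeq2 1.42.0, and leaving out each library. Fits that left out a library kept the genes and dispersion trend of the full fit. The code was tested on simulated counts. Overlaps with other genes were read from GENCODE 44, and promoters from RefSeq.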

Additional observations from a re-analysis of the deposited data

How the results depend on the processing

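The counts of calls and the medians of the members in the 25 comparisons made 55 values. A reversal was defined only for LFCs of single genes against non-treated cells at 12 h and 24 h, and 0 were reversed. It was a change of sign where the gene was called in the main fit or the other fit. Genes called in neither changed sign in 131 of 1728 values when a library was left out. With library size only, 18 of 288 did. The medians of cadmium and mercury at 3 h and of cadmium at 12 h changed sign with library size only. A count was taken as kept within 1.5 times and a median within the spread between replicates. With RLE size factors 54 of the 55 were kept, with library size only 43, with no filter 50, with at least 30 counts in 3 libraries 51, with the replicate block 53, with DESeq2 49, and with an adjusted p under 0.01, 22 of 24.

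With library size only, the member medians were 0.0095 for arsenic and 0.021 for cadmium at 1.5 h, -0.041 for cadmium and -0.014 for mercury at 3 h, 0.0091 for mercury at 6 h, -0.038 for cadmium and 0.086 for mercury at 12 h, and 0.16 for mercury at 24 h. There, 1 member was lower for mercury at 6 h, 1 for cadmium at 12 h, 0 for arsenic against mercury and 3 for cadmium against mercury at 12 h. The arsenic median at 1.5 h was 0.033 with RLE, 0.035 with the stricter filter and 0.034 with DESeq2. Without a filter, members lower with mercury were 0 at 12 h and 1 at 24 h, and at an adjusted p under 0.01 also 0 and 1. Without a filter, members higher with arsenic than cadmium were 0 at 12 h and 1 at 24 h, and lower with arsenic than mercury at 12 h 1. Members higher with mercury at 6 h were 5 with the stricter filter and with DESeq2. Members higher with cadmium at 12 h were 1 with the stricter filter, the replicate block and DESeq2, and members lower with cadmium than mercury there were 3, 3 and 4. DESeq2 called 2 members for arsenic at 12 h and 1 for the arsenic effect at 24 h minus 12 h.

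Leaving out 1 library gave member medians of 0.031 to 0.060 for arsenic at 1.5 h, 0.058 to 0.12 at 12 h and 0.094 to 0.16 at 24 h, of -0.010 to 0.044 for cadmium at 12 h, and of 0.095 to 0.16 and 0.19 to 0.24 for mercury at 12 h and 24 h. Members called were 0 to 2 for arsenic at 1.5 h, 0 to 1 for the arsenic effect and 0 to 3 for non-treated cells. Members higher were 2 to 5 for mercury at 6 h, 0 to 2 for cadmium at 12 h and 2 to 8 for arsenic at 24 h. Members lower were 0 to 1 for cadmium and for mercury at 12 h, and 1 to 2 for arsenic and for mercury at 24 h. Between metals at 12 h, the arsenic libraries were higher than cadmium for 0 to 1 and lower than mercury for 0 to 5, and cadmium lower than mercury for 1 to 3. At 24 h, arsenic was higher than cadmium for 0 to 3 and lower for 0 to 4, higher than mercury for 0 to 1 and lower for 4 to 8, and cadmium was higher than mercury for 1 to 3. The cause of these differences was not tested.

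As a replicate block, the numbers moved 2 of the 55 values, those given above. Deviations of same-numbered libraries correlated between -0.278 and 0.0837 (45 pairs, median -0.0080), so no shift in the same direction was detected. The lowest value was that of cadmium replicate 3 at 24 h, where the deviations ran in part in opposite directions. Whether same-numbered libraries were prepared together was not tested. The 3 libraries of a group limited the precision of a member's LFC to a median 95% interval of ±0.217 at 24 h, so smaller differences were often not separated from 0, and PSMB8, PSMB9 and PSMB10 were further limited by low counts.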
